A study of Cyprinus carpio with 12 samples.

Results

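The regions described here are those in which CpG methylation was listed as different between mid-blastula embryos of common carp (Cyprinus carpio) obtained with stored sperm and embryos obtained with fresh sperm. All 39021 rows of the embryo list were taken, out of 80043 regions in the embryo and sperm lists together. The paper reports fewer differing regions than these lists hold, both for embryos and for sperm. Counts and shares below are therefore those of the lists and not of the paper's set. Whole-genome bisulphite sequencing was applied to 12 libraries in 4 groups of 3, namely fresh sperm (day 0 after stripping), sperm kept for 14 days, and the embryos from each kind of sperm. The sperm had been held on ice in an extender, fresh and stored samples came from the same males, and oocytes of a single female were used, so that both embryo groups share 1 mother. Embryo DNA was extracted from pools of whole embryos, and a level therefore averages over the cells and embryos of a pool. The methods do not say whether both fertilisations were made on the same day. Each region carried a single methylation level per group, with no value per library and no read depth, so that no level below has a replicate error and no difference could be tested over samples. Intervals are Wilson 95% intervals that treat regions as independent and cover counting error only. In the following, "hyper" means a higher and "hypo" a lower level in embryos from stored sperm, and differences are given in percentage points as stored minus fresh. Words such as rose, fell, gain and loss compare these groups for regions that the authors listed, each with a deposited p-value below 0.05 that is not adjusted for multiple testing.

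DNA methylation in vertebrates sits mostly on cytosines that are followed by guanine, and most such sites are methylated except at CpG-rich promoters and enhancers. In zebrafish, another cyprinid, the paternal methylation pattern is largely kept in the early embryo while the maternal genome is brought to the same pattern by the mid-blastula stage. The mid-blastula is also the stage around which transcription from the embryo's own genome begins. The common carp genome is allotetraploid, with an A and a B subgenome of 25 chromosomes each.

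Embryo regions were short and held few cytosines. Their median length was 79 bp (10th to 90th percentile 23 to 226 bp, range 5 to 832 bp). A count of 5 cytosines, the smallest in the list, was found in 58.6% of regions, whereas 5061 regions (13.0%) held at least 10 and the largest held 64. The counts are read here as cytosines of both strands, since 340 regions were too short to hold their count on a single strand. On this reading, which the sources do not state, a region of 5 cytosines can cover fewer than 5 CpG sites. Together the regions covered 4147 kb with 268653 cytosines.

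Taken as a whole the list was almost balanced in direction, and the hyper and hypo sides mirrored each other at the median. Of the 39021 regions 19669 were hyper, which is 50.4% (49.9 to 50.9). By the mean of the fresh and stored level, the hyper share was 49.7% (49.1 to 50.2) at 75% or more. It was 52.8% (51.6 to 53.9) from 25% to 75% and 53.2% (50.6 to 55.9) under 25%. The higher of the paired levels had a median of 94.6% in hyper and 94.96% in hypo regions, and the lower level a median of 81.4% and 81.9%. The higher level reached at least 95% in 47.6% of hyper and 49.8% of hypo regions. Median length was 80 and 78 bp, and a deposited p-value below 0.001 was found in 24.3% and 24.6% (24.4% of the whole list). In the sperm list 62.0% of regions were hyper, and the sides were unlike. Median higher levels there were 95.8% in hyper and 92.4% in hypo regions, as shown in the plot of levels by direction. The absolute difference had a median of 12.5 points and a 90th percentile of 19.99 points in embryos, close above the minimum of 10 points that every listed region met.

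**Figure D1:**
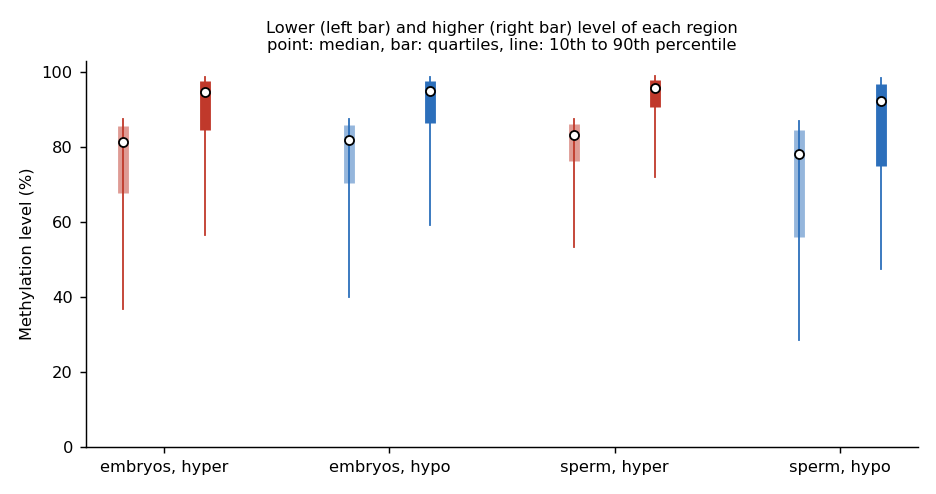
Methylation level (%) of regions in the embryo and sperm lists, hyper in red and hypo in blue. For each direction the left bar gives the lower and the right bar the higher of the levels of the fresh and stored groups, with the median (point), quartiles (bar) and 10th to 90th percentile (line). The embryo medians were 81.4% and 94.6% in hyper and 81.9% and 94.96% in hypo regions.

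Regions with more cytosines were slightly more often hyper in embryos. Among regions with 5 cytosines 49.97% were hyper (49.3 to 50.6), against the 50.4% of the list. The share was 52.2% (50.5 to 53.9) at 10 to 14 cytosines, 53.9% (50.9 to 56.8) at 15 to 19 and 54.9% (50.7 to 59.0) at 20 to 29. In the 96 regions with at least 30 cytosines it was 53.1%, with an interval from 43.2 to 62.8 that includes 50%. The sperm list had the opposite order, from 65.3% at 5 cytosines to 19.4% at 30 or more. By length, the 358 embryo regions of at least 400 bp stood apart with 58.1% hyper (52.9 to 63.1), and regions of 200 to 400 bp had 52.7% (51.3 to 54.0). By size of the difference the share was 55.0% (51.8 to 58.2) at 25 to 30 points but 48.1% (43.7 to 52.5) at 30 to 40 points, so that it showed no steady order.

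CpG density, given as cytosines of both strands per 100 bp, had a median of 8.33 over all embryo regions. It was 8.24 in hyper and 8.33 in hypo regions, with quartiles of 4.35 to 15.4 and 4.42 to 15.5. The corresponding sperm medians were 6.52 and 8.77. Density went with level, since regions with a mean level under 25% had a median density of 12.3, those between 25% and 75% 10.4 and those of at least 75% 7.53. Among the density classes, only the sparsest embryo regions had a hyper share whose interval left out 50%. Under 2.5 cytosines per 100 bp 52.9% of 2828 regions were hyper (51.1 to 54.8), whereas the classes above this limit lay between 49.5% and 50.7%. This class had a median length of 260 bp and a median of 5 cytosines. With at least 5 cytosines each, its regions are all longer than 200 bp. They are thus part of the long regions described above and not a separate result.

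The regions were spread over all 50 chromosomes, with chromosome 3 of both subgenomes carrying the most per Mb. On the chromosomes lay 35962 regions, 50.4% of them hyper, and 3059 lay on joined unplaced sequence. Density averaged 23.2 ± 2.77 regions per Mb (SD over 50 chromosomes). A3 had 33.9 and B3 29.6 regions per Mb, followed by B22 with 27.5, B7 with 26.6 and A7 with 26.5. The lowest densities were 18.5 on A15, 18.8 on B6, 19.6 on A25, 19.9 on A20 and 20.2 on A24. Across the 25 pairs of homoeologous chromosomes, which share number and ancestry, densities of A and B had a Pearson correlation of 0.34 and a Spearman correlation of 0.09. The pairs share the libraries and the genome, and the high values of chromosome 3 in both subgenomes weigh on the Pearson value. Density had a correlation of 0.47 with chromosome length and 0.055 with genes per Mb over the 50 chromosomes. In the sperm list A3, B3 and B22 also had the highest densities, 32.4, 29.4 and 29.2 regions per Mb, and A15 the lowest, 20.0.

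The balance of hyper and hypo regions varied little between chromosomes. The hyper share ran from 45.8% on A12, 46.2% on B11 and 46.7% on B1 to 54.1% on A16, 54.8% on B25 and 55.3% on B24. Its SD over chromosomes was 2.29 points, where independent directions at these numbers of regions would give 1.93. The interval left out the share of the whole list on 5 chromosomes, and 29 of 50 lay above 50%. The shares of A and B partners had a correlation of 0.039 over 25 pairs.

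**Figure D2:**
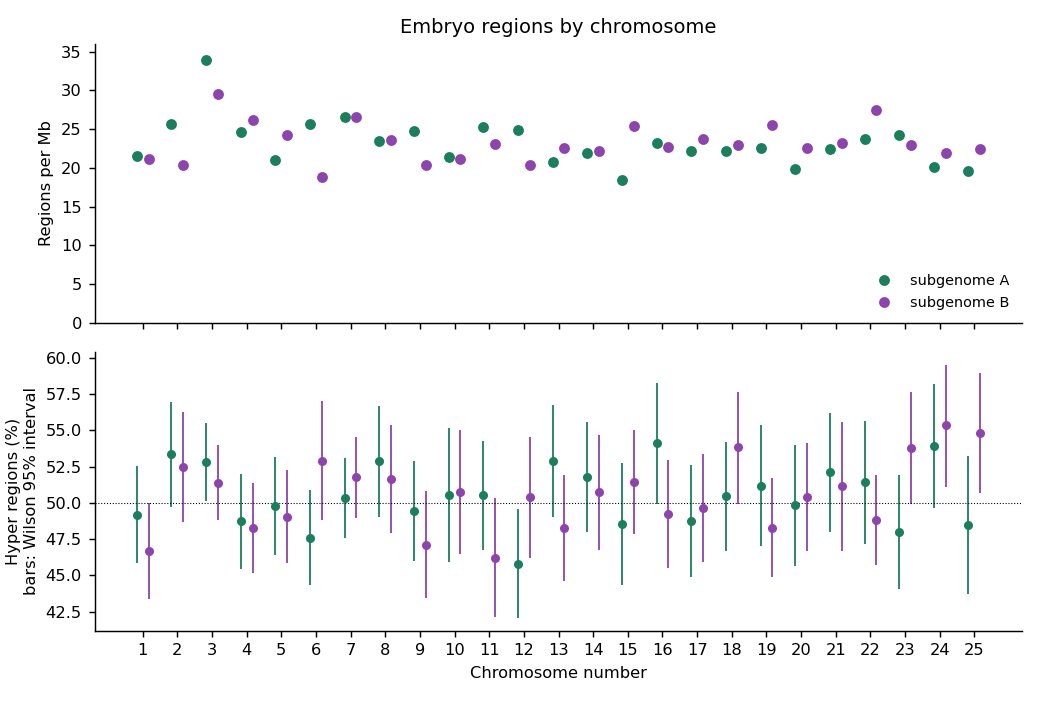
Embryo regions on the 25 A (green) and 25 B (purple) chromosomes, with regions per Mb in the upper panel and the hyper share (%) with its Wilson 95% interval in the lower panel. A3 (33.9 per Mb) and B3 (29.6 per Mb) lie above the other chromosomes, and hyper shares run from 45.8% to 55.3%.

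Along the chromosomes the embryo regions were somewhat denser towards the ends than in the middle, though not densest in the outermost Mb. Each chromosome was cut into 10 parts of equal length. Parts 1 and 2 had 24.9 and 25.3 regions per Mb, parts 6 and 7 had 21.3 and 21.1, and part 10 had 24.3. Median CpG density followed a like course, from 8.49 cytosines per 100 bp in part 1 to 7.61 in part 6 and 9.09 in part 10. The hyper share stayed between 49.0% and 51.6% in all 10 parts. Regions per Mb followed a like course in the sperm list, with 26.3 in part 1, 23.0 in part 7 and 24.9 in part 10.

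Short gaps between regions were more frequent than random spacing with the same mean gap would give. The median gap between neighbouring regions was 24.4 kb, and the widest was 850.2 kb. Of 35912 neighbouring pairs 1327 (3.70%) were closer than 200 bp, where random spacing on each chromosome would give 0.479%. Under 1 kb lay 8.82% of pairs against 2.37%, under 10 kb 29.8% against 21.3%, and under 50 kb 71.0% against 69.5%. Listing required at least 5 neighbouring cytosines with reads, so that random spacing in base pairs is a reference and not an expectation for these lists. The sperm list had 3.49% of gaps under 200 bp and 8.33% under 1 kb. When embryo regions with gaps under 1 kb were grouped, 2641 clusters held 5808 regions, or 16.2% of those on chromosomes, and the largest clusters, 18 in number, held 5 regions. Among the 420 clusters of at least 3 regions 60 were hyper throughout, 61 were hypo throughout and 299 were mixed. Of these clusters 332 held 3 regions. The numbers that independent directions would give were not computed for clusters, so the mixed ones do not show a lack of common direction.

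Crowding was also seen in windows of 1 Mb. The 1507 windows held 23.5 ± 8.76 regions (SD over windows), with a range of 1 to 67 and a ratio of variance to mean of 3.26. The fullest was the window from 30 to 31 Mb on A9 with 67 regions, 35 of them hyper, and the sperm list had 62 regions there. The first Mb of B3 held 65, the first Mb of B13 61, the window from 8 to 9 Mb on A12 59 and that from 3 to 4 Mb on A3 56. In the 974 windows with at least 20 regions the hyper share had an SD of 10.2 points, against 9.69 for independent directions. The extremes were 5 hyper of 22 regions from 15 to 16 Mb on B10 and 22 of 27 in the first Mb of A16.

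Neighbouring regions shared their direction mainly when they lay within 100 bp of each other. At gaps under 50 bp 68.9% of 505 pairs had the same direction (64.7 to 72.8), and at 50 to 100 bp 64.4% of 323 pairs (59.0 to 69.4), where independent directions would give 50.0%. The share was 53.7% (49.3 to 58.0) at 100 to 200 bp, 52.5% (49.3 to 55.7) at 200 to 500 bp and 48.9% (45.7 to 52.2) at 500 to 1000 bp. From 1 kb upwards it stayed between 50.2% and 51.3%, and over all gaps of at least 200 bp it was 50.6% (50.1 to 51.1). Over all neighbours it was 51.0% (50.5 to 51.5), but 49.9% among regions that differed by at least 20 points and 49.3% among those with at least 10 cytosines, both below their value for independent directions with intervals that include it. In the whole list regions 2 to 5 places apart agreed in 49.7% to 50.4%. Regions within 100 bp of each other can be covered by the same sequenced fragments, and the part of shared fragments in the result was not tested. The sperm list had 76.9% at gaps under 50 bp and 55.2% at 10 to 50 kb, where independent directions would give 53.0%.

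**Figure D3:**
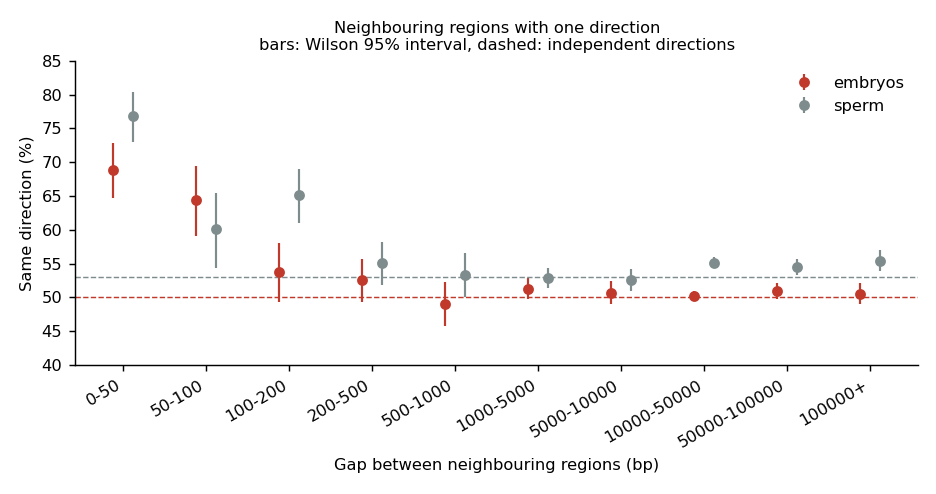
Share of neighbouring regions with the same direction (%) by the gap between them (bp), for embryos (red) and sperm (grey), with Wilson 95% intervals. Dashed lines mark independent directions, 50.0% in embryos and 53.0% in sperm. The embryo points at gaps under 100 bp, 68.9% and 64.4%, lie above the line and those from 200 bp on lie close to it.

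Joining neighbours of the same direction with gaps under 200 bp gave 787 blocks of more than 1 region, 421 hyper and 366 hypo. Of the 10 blocks with the most cytosines, 9 were hyper. The first, on A13 (13786956 to 13787305), joined 3 regions with 90 cytosines, lay in no gene and had levels of 44.4% to 57.8% with fresh and 57.4% to 68.6% with stored sperm. A single region of 64 cytosines on B4 (34491587 to 34491845) went from 32.1% to 49.8%. Blocks in named genes were a hyper block of 49 cytosines in p2ry1, a purinergic receptor gene, on A18 (3762124 to 3762614), and a hyper block of 47 cytosines in mkrn2, a makorin RING finger gene, on A11 (2343981 to 2344567). The p2ry1 levels were 43.3% to 53.2% with fresh and 65.4% to 71.2% with stored sperm. In mkrn2 they were 19.3% to 23.7% and 36.1% to 38.2%. The hypo block among the 10, with 47 cytosines in LOC109059245 on B13 (4919068 to 4919463), had 34.9% to 35.6% with fresh and 18.2% to 20.4% with stored sperm. Over all blocks with at least 30 cytosines, 74 of 136 were hyper in embryos and 28 of 160 in sperm.

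Opposite directions were also found side by side. On A8 a region at 24683656 to 24683673 fell from 88.9% to 53.1%, and 6 bp further on a region at 24683680 to 24683815 rose from 31.1% to 75.6%. On B9 the regions at 25862852 to 25862863 and 25862979 to 25863057 went from 58.9% to 21.2% and from 40.1% to 84.4%, with 115 bp between them. In both pairs every region held 5 cytosines. These pairs were chosen for their summed difference among opposite neighbours, so their size is a description.

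Most runs of neighbours with 1 direction were about as frequent as independent directions would make them. Runs of 8 to 10 regions were somewhat more frequent and those of at least 11 were not, and a single run was much longer than the others. No spread was computed for the numbers under independent directions, so these excesses were not tested. The regions formed 17645 runs, against 17980 for independent directions, and 8614 runs held a single region against 8990. Runs of 8, 9 and 10 regions numbered 93, 43 and 22, against 70.3, 35.2 and 17.6. Runs of at least 11 regions numbered 16, against 17.6. The longest had 22 hyper regions over 570.8 kb on B20 (5031482 to 5602269), but among regions with at least 7 cytosines the longest run had 12 regions and lay on B23. After the B20 run, the next longest had 14 hyper regions on B24. The longest hypo run had 12 regions, on B9 (27428419 to 28071985). The longest sperm run had 29 hyper regions, in a list with 62.0% hyper regions.

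In the B20 run the differences were modest and the levels varied. Differences ran from 10.0 to 19.9 points with a median of 12.4, close to the 12.5 of the whole list. Of the 22 regions 5 had a deposited p-value below 0.001, near the share of 24.4% in the whole list. With fresh sperm 15 regions had a level of at least 75%, 4 lay between 25% and 75%, and 3 lay under 25%. The largest difference was in a region of LOC109113276 at 5112547 to 5112811, with 21.3% against 41.1%. The smallest deposited p-value, 2.25e-05, belonged to a region of 7 cytosines at 5585756 to 5585822 between genes, with 68.6% against 86.8%. In all, 10 of the regions lay in genes, all of them LOC genes, and 12 in none. The span holds 17 genes, of which ccnk, the gene of cyclin K, and ism2b, an isthmin gene, carry a name. No region of the run lay in either of these named genes. The run was bounded by hypo regions, from 87.6% to 76.3% on the left and from 92.9% to 79.7% on the right. The sperm list had 22 regions in the same span, 13 hyper and 9 hypo, where 62.0% of the whole sperm list was hyper. Of these sperm regions 2 overlapped regions of the run, both hyper.

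**Figure D4:**
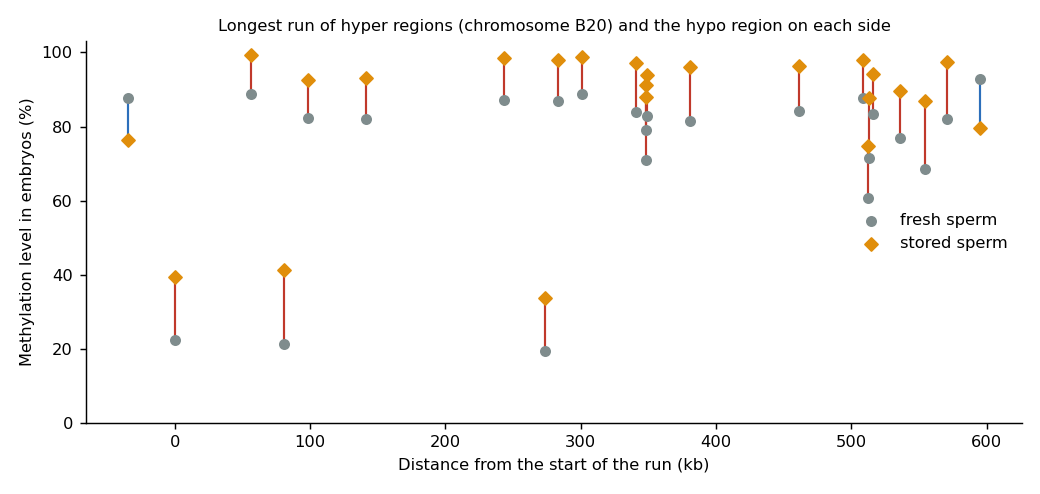
Methylation level (%) in embryos from fresh (grey circles) and stored sperm (orange diamonds) for the 22 regions of the longest hyper run on B20 and the hypo region on each side, against distance from the start of the run (kb). Red lines join levels that were higher and blue lines levels that were lower with stored sperm. Most regions lie between 60% and 100%, and 3 lie between 19.4% and 41.1%.

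Gene bodies held 57.1% of the embryo regions on chromosomes, with 49.9% hyper inside and 51.2% between genes. With overlapping genes counted each time, gene bodies had 22.9 regions per Mb, close to the 23.5 per Mb of the chromosomes as a whole. A region reached 11796 of 55089 genes (21.4%), and 24.5% of protein-coding genes. Genes known only by a locus number (LOC) and genes with a name were reached alike, with 21.4% each, and had 22.8 and 23.1 regions per Mb of body. Bodies of lncRNA genes had 29.6 regions per Mb, protein-coding bodies 23.1 and pseudogenes 17.5. How often a protein-coding gene was reached went with its length, from 5.70% of those under 5 kb to 99.4% of those of at least 250 kb. Regions per 100 kb stayed between 2.07 and 2.39 over all length classes of protein-coding genes.

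At least 8 regions were found in 195 genes, or 0.354% of all. Of these 143 were LOC genes and 52 had a name, so that LOC genes made up 73.3% of them and 80.0% of all genes. Their median length was 261.6 kb. In the sperm list 234 of all 55089 genes had as many, and 124 genes reached this number in both, which is 63.6% of the embryo and 53.0% of the sperm genes. Protein-coding genes of at least 250 kb had a mean of 9.65 embryo regions. The shared genes were not compared with genes of like length, so the overlap cannot be told apart from an effect of length. Among the 1976 genes with at least 3 regions 320 were hyper or hypo throughout, where independent directions would give 302.0. Among the 195 genes the hyper share had an SD of 16.4 points, against 15.4 for independent directions, and 1 gene was in 1 direction throughout, where independent directions would give 0.618.

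The named gene with the most embryo regions was avl9, whose yeast counterpart acts in late secretion. It had 39 regions over 700.7 kb on A12 (8513784 to 9214456), 19 hyper and 20 hypo, and 22 of them also lay in other annotated genes. Part of it lies in the window of 59 regions on A12. Its largest gain was from 52% to 84.7% (9126023 to 9126137) and its largest loss from 59.97% to 23.2% (9089246 to 9089299). The neurexin gene nrxn2b, a presynaptic adhesion gene, had 22 regions on B7, 11 of each direction. Its largest gain was from 46.4% to 90.3% (1791137 to 1791230) and its largest loss from 50.7% to 19.8% (1594103 to 1594288). In mrc1a, a mannose receptor gene that marks certain endothelial cells in zebrafish, 10 hyper and 10 hypo regions were listed. The direction matched that of the neighbour in 14 of 19 pairs, where independent directions over the list would give 50.0%. Such matches numbered 21 of 38 in avl9, 9 of 21 in nrxn2b, 8 of 17 in bnc2 and 11 of 16 in wdr11. The 50.0% suits only genes with balanced directions. In wdr11, with 3 hyper and 14 hypo regions, many neighbours match in any order, so its count shows no agreement beyond that imbalance. The zinc finger gene bnc2 had 7 hyper and 11 hypo regions, and alk, a receptor tyrosine kinase gene, 5 and 8. The genes cntln of the centrosome and acad11 of fatty acid oxidation were balanced, with 6 hyper and 6 hypo, and 6 hyper and 5 hypo regions. The direction was uneven in csmd3b, a gene of CUB and sushi domains, with 11 of 13 regions hyper, and in tmem132e, a gene linked to hearing in human, with 11 of 14 hyper. The sperm list, 62.0% hyper as a whole, had 4 hyper of 8 regions in csmd3b and 9 of 17 in tmem132e. The channel genes scn5lab, of voltage-gated sodium channels, and kcnma1a, of calcium-activated potassium channels, each had 8 hyper and 3 hypo regions, and pamr1b had 9 and 3. The sulfotransferase gene chst10 had 3 hyper and 8 hypo, and ralgapa2, a GTPase-activating protein gene, 5 and 8.

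Among the named genes with at least 8 regions wdr11, a WD repeat gene linked to ciliogenesis, had the lowest hyper share, with 3 hyper and 14 hypo regions over 184.8 kb on B13 (sperm list 0 hyper of 7). Its hypo regions were mostly highly methylated with fresh sperm. The largest fell from 92.8% to 71.7% (5778032 to 5778220). A region of 15 cytosines went the other way, from 48.0% to 68.6% (5790672 to 5790801, deposited p-value 8.03e-07). Other named genes with mainly hypo regions were the ubiquitin peptidase gene usp43a, with 8 of 10, and the teneurin gene tenm2b, with 7 of 9. Genes were ordered by their hyper share here, so these counts are descriptions.

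**Figure D5:**
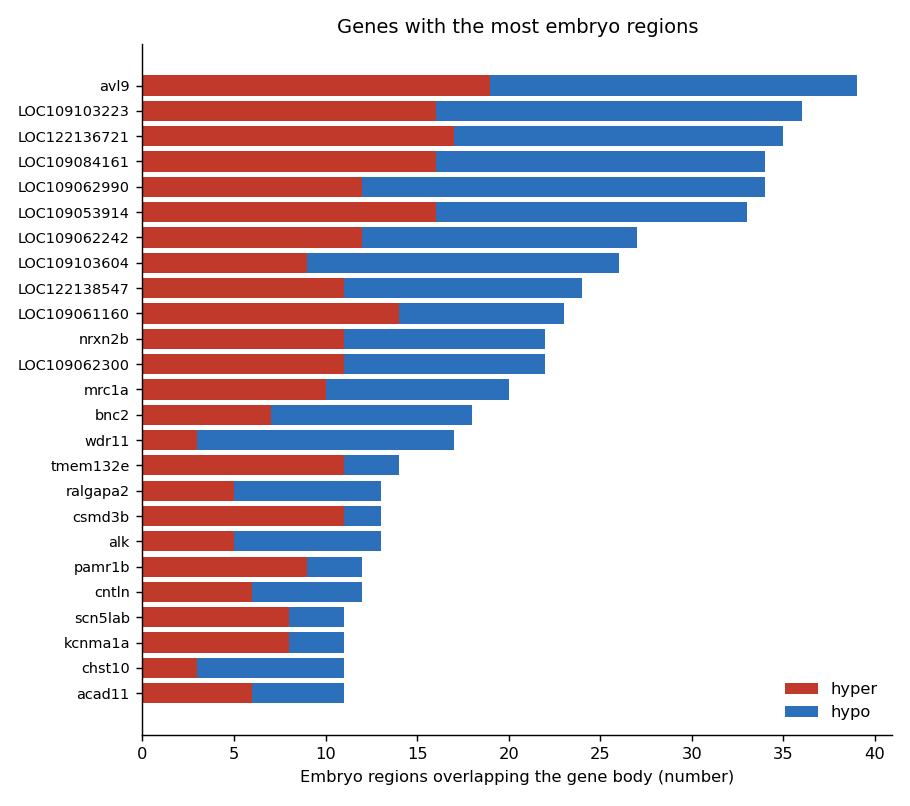
Number of embryo regions overlapping the bodies of the 15 named and 10 LOC genes with the most regions, hyper in red and hypo in blue. Most bars are near balance, as in avl9 with 19 hyper and 20 hypo regions, while wdr11 has 3 hyper and 14 hypo and csmd3b 11 hyper and 2 hypo.

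Among LOC genes, LOC109103223 on B22, with 1793 kb the longest of the 195 genes with at least 8 regions, had 36 regions, 16 hyper and 20 hypo, and 30 of them also lay in other genes. The pseudogene LOC122136721 on B3 had 35 regions (17 hyper), LOC109084161 on B22 34 (16 hyper), LOC109062990 on A4 34 (12 hyper) and LOC109053914 on B8 33 (16 hyper). Regions that lay in another gene as well numbered 17 in LOC122136721, 27 in LOC109084161, 2 in LOC109062990 and 15 in LOC109053914. LOC109065484, a protein-coding gene of 75.2 kb on A9, was the gene among the 195 with 1 direction throughout. Its 8 regions were all hypo, from a first region at 98.8% against 86.2% (765223 to 765265) to a last at 97.9% against 86.9% (823094 to 823131). None of these 8 had a deposited p-value below 0.001, against 24.4% of the whole list. The largest difference in this gene was a fall from 78.3% to 52.2% (781411 to 781505). The highest hyper share among the 195 was that of LOC109112132 on B7, with 9 of 10 regions.

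Among genes with at least 8 regions, the one with the most regions for its length was LOC109053754 on B3, a protein-coding gene of 17.6 kb with 8 regions (2 hyper), or 45.6 per 100 kb. The median of these 195 genes was 4.12 per 100 kb. Of its 8 regions 6 had a deposited p-value below 0.001, against 24.4% of the whole list. The regions of this gene covered low and high levels alike. A region at 4920973 to 4921027 fell from 77.5% to 49.6%, one at 4922109 to 4922129 from 16.4% to 3.34%, and one of 20 cytosines at 4919814 to 4919975 rose from 77.4% to 87.5%. The next in density among them were LOC109068097 on B22 with 17.8, LOC109096520 on A3 with 17.6 and the lncRNA gene LOC109078370 on A3 with 17.1 regions per 100 kb.

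Genes that act in the early embryo were looked up by name in lists chosen for this stage, of which the gene table held only a part. Copies known only by a LOC number, as 80.0% of all genes are, were not looked up. A gene said to have no region therefore means its named copy. In the list of DNA methylation machinery 1 of 15 genes had a region (6.67%, against 21.4% of all genes). This was dnmt3ab, a de novo methyltransferase gene on B17, with 2 hyper and 2 hypo regions. The hyper regions went from 87.3% to 98.5% (18778844 to 18778873) and from 82.9% to 93.96%, and the hypo regions from 98.2% to 86.1% and from 98.4% to 82.9%. The genes without a region included dnmt3ba, tet2 and hells. The list had a median gene length of 5.76 kb, and short genes were reached less often.

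In the list of zygotic genome activation and maternal factors 8 of 27 genes had a region, with 6 hyper and 4 hypo regions. This is 29.6% of the list, against 21.4% of all and 24.5% of protein-coding genes. The median gene length of this list was 5.64 kb, and 13.1% of protein-coding genes of 5 to 10 kb had a region. The homeobox gene nanog, one of the factors that open the zygotic genome in zebrafish, had a hypo region of 9 cytosines on B24 (9619803 to 9619883), from 88.5% to 76.6%. Its partners pou5f3 and sox19b had none. The oocyte kinase gene wee2 had the largest difference of the list, from 83.3% to 60.4% (B18, 17057467 to 17057539). The histone acetyltransferase genes differed in direction, since crebbpa had hyper regions only (84.6% to 97.9% and 87.9% to 98.5%) and ep300a a hypo region (98.4% to 87.2%).

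The list of blastula patterning had a median gene length of 5.19 kb. In it 7 of 38 genes (18.4%, against the same 21.4% of all genes) had a region, with 5 hyper and 9 hypo. The Wnt pathway scaffold gene axin1 on A3 held 6 of these, 1 hyper and 5 hypo. Its largest loss was from 81.4% to 50.9% (16484635 to 16484738), and at 16454864 to 16454922 the level fell from 76.6% to 48.9%. The kinase gene gsk3ba of the same pathway had 1 hyper and 2 hypo regions, and ctnnb1, the gene of beta-catenin, a hyper region (83.96% to 97.0%). The activin receptor gene acvr2aa had a hypo region of 19 cytosines on B9 (16694589 to 16694817), from 94.8% to 76.7%, with a deposited p-value of 1.47e-12. The ventral homeobox gene vent fell from 48.9% to 28.5%. In the list of chromatin repressor and remodelling complexes 10 of 20 genes (50.0%, against 21.4% of all genes) had a region, with 4 hyper and 9 hypo. The median gene length of this list was 21.2 kb, and a region was found in 27.5% of protein-coding genes of 10 to 25 kb and in 51.8% of those of 25 to 50 kb. The histone deacetylase gene hdac9b had the largest difference (70.7% to 35.8%), and the demethylase gene kdm2aa was hyper (75.5% to 94.4%). The histone methyltransferase genes with a region were ehmt1a (96.9% to 84.2%), ehmt1b (86.2% to 97.7% in the larger of its differences) and setdb1b (99.6% to 89.1%). Among the Polycomb genes jarid2a (97.7% to 86.6%), phc2b (99.5% to 87.9%) and pcgf5b (95.9% to 85.3%) each had 1 region, which was hypo. Those without a region included eed, bmi1a, mtf2, pcgf5a and phc2a.

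The 74 regions with a difference of at least 40 points had a median length of 43 bp, against 79 bp in the whole list. Their median count was 5 cytosines, as in the whole list. Apart from the extremes of the whole list, the examples below were taken only from LOC genes and from between genes. The largest gain of the list lay on unplaced sequence, a region of 5 cytosines with 14.4% against 79.7%. On the chromosomes the largest was a region of 6 cytosines on A11 (25679667 to 25679704), 0.51 kb from LOC109049428, with 3.74% against 64.3%. Between genes a region on A7 (46056573 to 46056608) had 20.2% against 76.7%, and one on B2 (31780166 to 31780222) fell from 60.1% to 11.2%. Among LOC genes with a deposited p-value below 0.001 the largest gain was in LOC109066057 on A4 (7186180 to 7186201), from 1.30% to 57.4%. In LOC109085197 on B13 (30831988 to 30832252) a region of 265 bp and 9 cytosines rose from 34.9% to 79.5%. The largest loss among them was in LOC109084161 and the overlapping LOC109078434 on B22 (4899436 to 4899445), from 62.6% to 11.6%, and in LOC109067104 on A3 (10847569 to 10847599) the level fell from 78.8% to 30.8%. The largest loss of the whole list, on A23 (20868854 to 20868887), was from 52.4% to a level listed close to 0, with a deposited p-value of 0.0294.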

How the data were processed

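The authors used BSMAP, whose version is not given in the sources used here, with the carp RefSeq assembly of the gene table, removed duplicates and took methylated over all reads as the level. Per region, they deposited a fraction per group (3 libraries as 1 value), a signed difference score, a p-value and a count of cytosines, with no depth. Every region had a p-value below 0.05 and a difference of at least 10 points. The stated 2-fold change was met by 4.20%. The methods name a Fisher test, but 99.9% of p-values correspond to whole rank sums (within 0.05) with 3 values per cytosine and group, so they mix spread between libraries with spread between cytosines. Starts were read as counting from 0 and are printed from 1. Chromosome names (A or B, 25 each) follow accession order, and the last region and last gene ended within 129.6 kb of each other. Genes were assigned by 1 bp of overlap. The gene table gives no exons. Random spacing used exponential gaps with the mean gap of each chromosome, and independent directions used the hyper share. Named items were those with the most regions, the highest or lowest hyper share or density, the longest runs, the largest blocks and differences, and list members. The regions, lists and rules were chosen with earlier results of these data known. Alternatives were limits on p-value, difference and cytosines, joined blocks and other gene assignments. Scripts used Python 3.11.15, pandas 2.3.3 and statsmodels 0.14.6 and were tested on simulated data.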

Additional observations from a re-analysis of the deposited data

How the results depend on the processing

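No paired analysis was possible because the lists give a single level per group, and for the same reason no replicate could be left out. Of 32 alternatives 10 left the value within its interval or within 1.5 times the count, 19 moved it and 3 turned it. The turned ones concern the small excess of neighbours with the same direction (51.0% against 50.0% for independent directions), which became a deficit with a difference of at least 20 points (49.9% against 50.1%), with at least 10 cytosines (49.3% against 50.2%) and after joining (49.9% against 50.0%), with intervals that include the independent value. With a deposited p-value below 0.001 the share of neighbours with the same direction was 51.7%. At this limit gaps under 1 kb made up 5.36% of gaps (0.587% for random spacing). The coefficient of variation of regions per Mb over chromosomes was 15.3% (11.9% for all regions). Median density was 10.2 cytosines per 100 bp, and 3867 genes had a region. With a difference of at least 20 points the hyper share was 52.4% (50.8 to 53.9), the short gap share 4.75% (0.244%), the coefficient 21.4% and density 10.4. With at least 10 cytosines these were 52.9% (51.5 to 54.2), 5.96% (0.316%), 19.5% and 11.0. Joining regions of one direction closer than 200 bp lowers the neighbour share by construction and gave a short gap share of 6.68%. Leaving 1 cytosine out of the count gave a density of 6.98. The following were chosen after seeing the data. Among neighbours closer than 200 bp the same direction was found in 62.1% of all pairs, in 68.9% with a p-value below 0.001, in 66.2% with at least 20 points (77 pairs) and in 67.7% with at least 10 cytosines (127 pairs). With at least 7 cytosines the longest run had 12 regions and lay on B23, in place of 22 on B20. Counting only regions that lay in 1 gene, 159 genes had at least 8, in place of 195. The lists give no depth, so regions of few reads could not be told from deeply read ones.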
